A study of Mus musculus with 32 samples.

Results

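Keratins are the intermediate filament proteins of epithelial cells, and 8 keratin genes, *Krt5*, *Krt7*, *Krt8*, *Krt14*, *Krt15*, *Krt17*, *Krt18* and *Krt19*, were followed here through the organs of the mid-gestation mouse embryo. They were chosen by name from the 23154 genes of the expression tables, and all 8 were described. The data were single-cell RNA-seq profiles of 1916 cells in 32 samples from 8 organs (intestine, liver, lung, skin, heart, somite, hindbrain and forebrain) of 7 C57BL/6J embryos, 3 of them of E9.5 with 2 each of E10.5 and E11.5. The labels gave no treatment or mutant allele for any embryo, and an embryo gave several organs. E9.5 embryo 2 was labelled female and the others male. The study's cell table kept 1819 cells and placed 1815 of them in a major group: 307 epithelial cells (EC), 875 mesoderm-derived cells (MC), 249 hematopoietic cells (HC) and 384 neuronal cells (NC). In intestine, liver, lung and skin the same table labelled 289 cells as epithelial (Epi) and 352 as mesenchymal (Mes).

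A kept cell held between 20326 and 2524348 unique molecular identifiers (UMIs), with a median of 306642. By embryo the median was 928653 in E9.5 embryo 2 and between 192177 and 310642 in the others. Epi cells expressed 2 or more of the epithelial markers *Epcam*, *Cdh1*, *Cldn6* and *Cldn7* in 110 of 110 cells in intestine, 52 of 52 in lung, 79 of 79 in skin and 40 of 48 in liver, where 48 of 48 carried hepatoblast markers. This cut does not set the labels apart. Intestine Mes cells passed it in 1 of 6, 2 of 11 and 1 of 9 cells of the E9.5 embryos. Later they passed in 11 of 14 and 14 of 19 (E10.5), then 7 of 7 and 8 of 8 (E11.5). Skin Epi cells with 2 or more mesenchymal markers ranged from 1 of 19 (E11.5 embryo 1) to 19 of 21 (E11.5 embryo 2). Of the Mes cells, those of the liver were all from E9.5, while liver Epi cells came from all 3 days. E9.5 embryos 1 and 2 were labelled as sequenced on a HiSeq 2500 and all other samples on a HiSeq 4000, and each E10.5 or E11.5 sample held the cells of an organ from both embryos of that day. E9.5 embryo 3 had lung with liver, and skin with intestine and somite, in common samples. Labels of cells came from the same cells' regulon activity, so the contrasts between Epi and Mes cells are not independent of the way the labels were made.

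Each keratin filament pairs a type I chain, here Krt14, Krt15, Krt17, Krt18 or Krt19, with a type II chain, here Krt5, Krt7 or Krt8. Krt8 and Krt18 are the pair of simple, single-layered epithelia and the earliest keratins of the embryo, and Krt7 and Krt19 join them in many ducts and linings. Krt5 and Krt14 form the network of the basal layer of stratified epithelia such as the epidermis, where Krt15 is also a basal keratin, and Krt17 is known from skin appendages and wounded epidermis.

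By the GENCODE annotation of GRCm38, the 3 type II genes lie on chromosome 15 and the 5 type I genes on chromosome 11, except *Krt18*, the type I gene that sits in the type II cluster on chromosome 15. *Krt8* (chr15:101996698-102004482, minus strand) and *Krt18* (chr15:102028180-102032027, plus strand) are neighbours with 23697 bp between them. *Krt5* (chr15:101707070-101712898, minus strand) and *Krt7* (chr15:101411043-101430313, plus strand) lie on the same chromosome. *Krt15* (chr11:100131758-100135928) and *Krt19* (chr11:100140810-100148665) are separated by 4881 bp, and *Krt14* (chr11:100203162-100207548) and *Krt17* (chr11:100256217-100261029) follow, all on the minus strand. Because the reads came from transcript ends, sequence shared at those ends bears on the counts. Of the 50-base windows in the last 1000 bases, 5.68% were shared with other transcripts for *Krt8* (its pseudogene *Krt8-ps*), 5.78% for *Krt14* (*Krt17*, *Krt16*), 6.2% for *Krt17* (*Krt14*, *Krt16*, *Krt42*), 1.05% for *Krt18* and none for the other 4 genes.

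The promoters of *Krt8* and *Krt18*, whose levels moved together across the cell sets, and of *Krt5*, which appeared late and in skin, are shown from RefSeq (GRCm38.p6), from 250 bases before to 50 bases after the annotated start, 5′ to 3′ on the strand of the gene. Capitals mark letters that matched a searched motif. RefSeq start windows were at hand for 5 of the 8 genes, and those of *Krt7* and *Krt14* began more than 1000 bases from the GENCODE gene start and are not shown.
Krt8, chr15:102004293-102004592, minus strand: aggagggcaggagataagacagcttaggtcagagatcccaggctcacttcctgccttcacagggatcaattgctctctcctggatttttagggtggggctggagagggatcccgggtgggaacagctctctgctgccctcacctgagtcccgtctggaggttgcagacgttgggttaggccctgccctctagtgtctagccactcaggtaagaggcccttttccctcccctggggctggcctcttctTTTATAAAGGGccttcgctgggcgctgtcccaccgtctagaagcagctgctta
Krt18, chr15:102027966-102028265, plus strand: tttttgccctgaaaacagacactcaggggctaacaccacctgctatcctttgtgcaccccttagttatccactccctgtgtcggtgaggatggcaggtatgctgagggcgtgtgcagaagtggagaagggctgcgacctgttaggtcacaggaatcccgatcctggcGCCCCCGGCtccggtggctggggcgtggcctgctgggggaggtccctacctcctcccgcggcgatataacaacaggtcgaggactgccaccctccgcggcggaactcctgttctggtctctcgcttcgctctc
Krt5, chr15:101712856-101713155, minus strand: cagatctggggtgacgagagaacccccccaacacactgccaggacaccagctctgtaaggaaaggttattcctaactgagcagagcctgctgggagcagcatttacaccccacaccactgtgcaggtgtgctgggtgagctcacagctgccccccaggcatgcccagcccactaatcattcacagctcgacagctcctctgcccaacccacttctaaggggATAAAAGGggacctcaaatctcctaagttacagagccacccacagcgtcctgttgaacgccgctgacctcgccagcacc

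*Krt5* held ATAAAAGG, a match to ATAAANGG, with its first base at -29 from the start site. *Krt8* held TATAAA and, overlapping it, ATAAAGGG at the annotated start site, which lay 140 bases from the GENCODE gene start. *Krt18* held GCCCCCGGC, a match to the AP-2 pattern GCCNNNGGC, at -83. On either strand, ATAAANGG (chosen after the sequences were seen) occurred in 3.65% of 32851 promoter windows of this length, TATAAA in 13.6% and GCCNNNGGC in 16.6%. GGGCGG (35.7%), TGANTCA (7.81%) and AACCNGTT (2.09%) were also searched and were not in these 3 windows.

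Levels are given as log2(TPM/10 + 1), averaged first over the cells of an embryo (at least 3 cells) and then over embryos, with the SD between embryos. TPM here was the gene's share of a cell's UMIs, scaled to one common total, with no gene length in it, so keratins can be compared with each other on one scale. A cell was taken to express a gene at a value of 1 or more. Across the 4 major groups, whose labels rest on the same cells and were therefore not tested, *Krt8* averaged 6.11 ± 0.45 (SD, n = 7 embryos) in EC, 1.76 ± 0.77 in MC, 0.51 ± 0.25 in HC and 0.34 ± 0.34 (n = 6) in NC. *Krt18* followed with 5.86 ± 0.71, 1.69 ± 0.71, 0.61 ± 0.11 and 0.32 ± 0.34. *Krt7* stood at 3.82 ± 0.82 in EC and 0.74 ± 0.33 in MC, and *Krt19* at 3.36 ± 0.69 and 0.90 ± 0.32. The pair of simple epithelia was thus the highest in EC and was also present in MC, while the 4 keratins of stratified epithelia averaged 0.67 or less in every group.

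As shares of cells, *Krt8* was expressed in 99.7% of EC, 51.9% of MC, 13.7% of HC and 9.64% of NC. HC are blood cells in which keratins are not a known product, and 47.8% of HC held at least 1 *Krt8* UMI at a median depth of 438200 UMIs, against 301700 in EC. Thinned to 100000 UMIs a cell, the shares expressing *Krt8* were 100% of EC, 64.1% of MC, 21.7% of HC and 18.5% of NC. At that depth 1 UMI is enough to reach a value of 1, so the shares depend on the rule of detection. The HC share was taken as a guide to the level at which background RNA cannot be told apart from expression. Whether the *Krt8* UMIs of HC are background or expression was not tested. The HC share pools organs, with 180 of 249 HC from liver. Mean *Krt8* was 0.03 in HC of forebrain and 0.32 in those of liver, but 1.10 in heart, 1.34 in lung and 1.71 in skin (lung and skin from 1 embryo each). The pooled share thus rests mostly on liver HC, and is too low to stand for HC of heart, lung and skin. *Krt7* was expressed in 84.7% of EC and 3.61% of HC, *Krt19* in 79.2% and 2.01%, *Krt15* in 19.5% and 1.2%, *Krt14* in 16.3% and 0.80%, *Krt5* in 9.45% of EC and *Krt17* in 5.86%.

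To ask which keratins separate the epithelium of an organ from its mesenchyme, Epi and Mes cells were compared within each organ (limma on embryo means; called at an adjusted p under 0.05 and a difference of at least 1). *Krt8* and *Krt18* were higher in Epi cells of all 4 organs, *Krt19* of 3, *Krt7* of 3, and *Krt14* and *Krt15* of skin. These made 16 called differences of 32, all higher in Epi. Of all 15616 genes tested, 3.93% were called in intestine, 5.77% in liver, 3.48% in lung and 3.7% in skin. The plot of Epi and Mes levels shows each embryo.

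**Figure D1:**
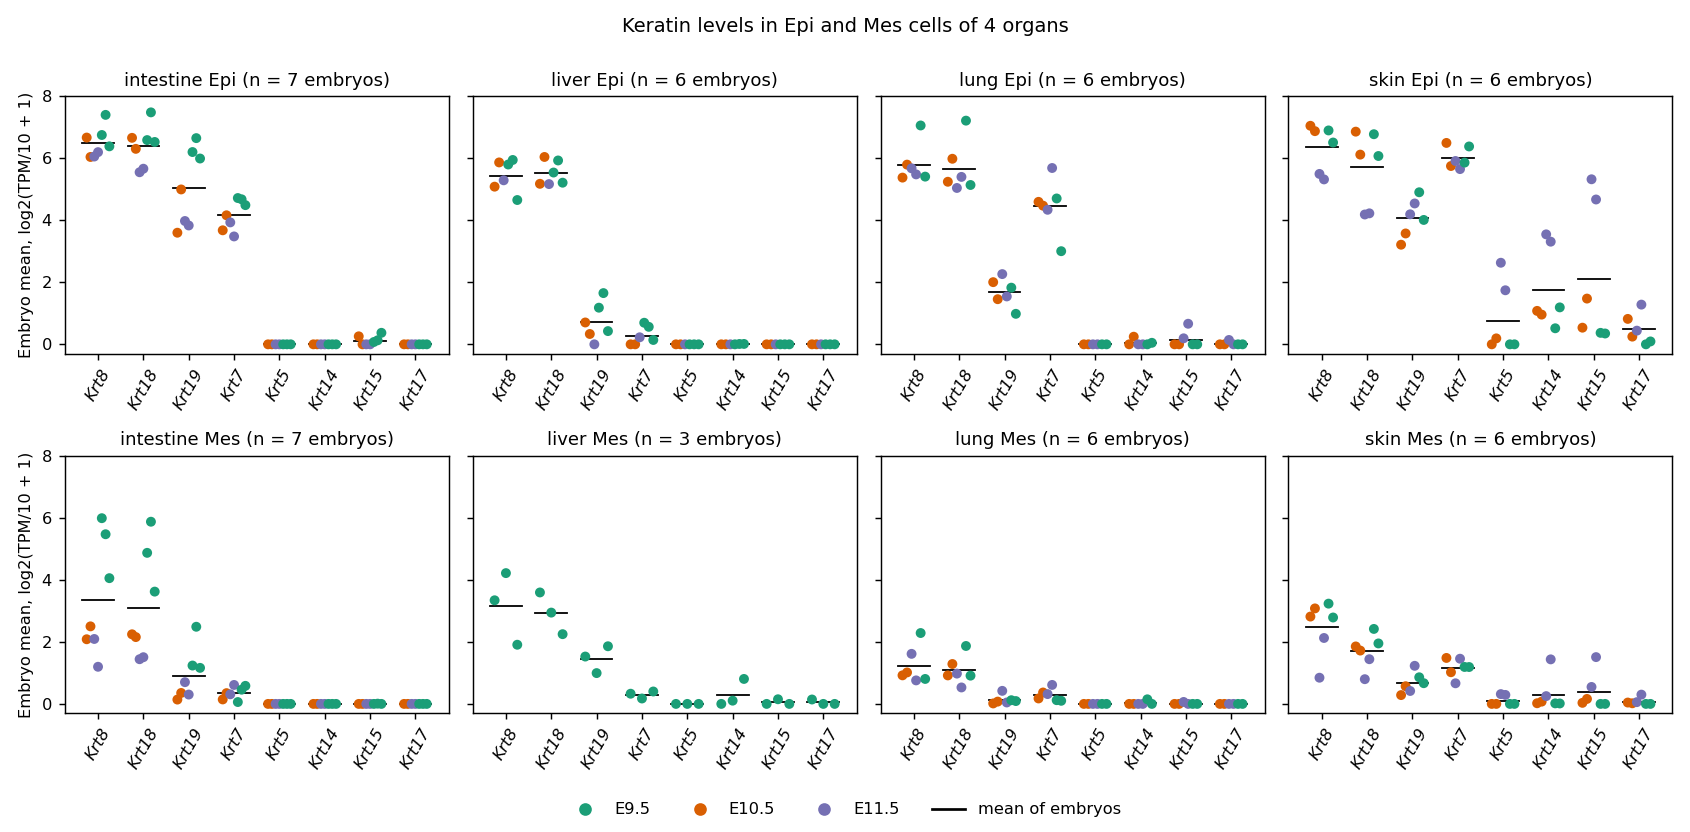
Embryo means of 8 keratins on log2(TPM/10 + 1) (vertical axes) in Epi cells (upper row) and Mes cells (lower row) of 4 organs; points are embryos coloured by day and bars are means of embryos. In Epi cells *Krt8* lies between 4.66 and 7.40 in every organ, while *Krt5* leaves 0 only in skin; the highest Mes points are *Krt8* and *Krt18* of the intestine at E9.5.

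In lung, *Krt8* ranged from 5.38 through a median of 5.58 to 7.06 over 6 embryos in Epi cells and from 0.76 through 0.97 to 2.29 in Mes cells. The embryos did not overlap, and the difference was 4.57 (SE 0.53, adjusted p = 9.3e-09). *Krt18* differed by as much, 4.59 (SE 0.52, adjusted p = 5.7e-09), and *Krt7* by 4.19 (SE 0.25, adjusted p = 2.4e-17). *Krt19*, low in the lung at 1.68 ± 0.45 in Epi cells, still exceeded its Mes level of 0.13 ± 0.15 by 1.55 (SE 0.39, adjusted p = 0.0068).

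In intestine, *Krt8* ranged from 6.04 through 6.39 to 7.40 over 7 embryos in Epi cells and from 1.2 through 2.50 to 5.99 in Mes cells. The highest Mes embryo came within reach of the lowest Epi embryo, and for *Krt18* the groups overlapped, with a highest Mes value of 5.88 against a lowest Epi value of 5.55. The differences were 3.16 (SE 0.49, adjusted p = 4.0e-06) for *Krt8* and 3.30 (SE 0.48, adjusted p = 1.3e-06) for *Krt18*. *Krt19* and *Krt7* separated the labels further, by 4.13 (SE 0.36, adjusted p = 2.9e-12) and 3.80 (SE 0.23, adjusted p = 2.8e-17), with no overlap for either.

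In liver, where the Epi cells carried hepatoblast markers, only the simple pair was called. Those markers do not single out liver Epi cells. In the E9.5 embryos 6 of 29, 25 of 25 and 14 of 22 liver Mes cells expressed 2 or more of them. For intestine Epi cells the counts ran from 0 of 5 (E9.5 embryo 1) to 7 of 8 (E10.5 embryo 1). *Krt8* was 5.44 ± 0.52 (n = 6 embryos) in Epi cells and 3.34, 4.22 and 1.91 in the 3 E9.5 embryos of Mes cells, a difference of 2.29 (SE 0.65, adjusted p = 0.014). *Krt18* was 5.51 ± 0.39 against 3.60, 2.95 and 2.25, a difference of 2.58 (SE 0.64, adjusted p = 0.0037). In each of the 3 E9.5 embryos, in which both labels had cells, Epi cells were the higher: *Krt8* was 5.80, 5.95 and 4.66 there and *Krt18* 5.54, 5.93 and 5.22. *Krt19*, a marker of the later bile duct lineage, did not pass (difference -0.74, adjusted p = 0.44): it was 0.72 ± 0.61 in Epi cells and 1.53, 0.99 and 1.86 in Mes cells. *Krt7* (-0.03) and *Krt14* (-0.30) were not called either. Without E9.5 embryo 3 the differences of the pair were 1.82 (adjusted p = 0.20) and 2.303 (adjusted p = 0.080), and by edgeR they were 1.42 and 1.96 (adjusted p = 0.25 and 0.099), none of them called.

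In skin, the simple keratins were all called, at 3.88 (SE 0.53, adjusted p = 2.6e-07) for *Krt8*, 4.01 (SE 0.52) for *Krt18*, 4.84 (SE 0.25) for *Krt7* and 3.40 (SE 0.39) for *Krt19*, with no overlap between embryos. *Krt14* differed by 1.47 (SE 0.28, adjusted p = 0.00017) and *Krt15* by 1.75 (SE 0.46, adjusted p = 0.0079), with overlapping embryos, and both were low in skin before E11.5. The *Krt15* call was lost without E11.5 embryo 1 (1.14, adjusted p = 0.086). The SE of *Krt15* pools all groups of the fit, and its SD between embryos was 2.28 in skin Epi but 0 in liver Epi. *Krt17* differed by 0.41 (adjusted p = 0.0035), below the size asked for, and *Krt5* by 0.66 (SE 0.22, adjusted p = 0.054).

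The 4 epithelia did not carry the same mixture. Summed over the 8 genes, keratins made up 3116 ± 705 TPM (SD, n = 6 embryos) in skin Epi, 2761 ± 1230 (n = 7) in intestine, 1669 ± 820 (n = 6) in lung and 1009 ± 314 (n = 6) in liver. *Krt8* and *Krt18* together supplied 98.3% ± 1.7 of this sum in liver, 78.4% ± 10.01 in lung, 74.0% ± 8.0 in intestine and 55.6% ± 18.6 in skin. Type II chains made 46.6% ± 6.2 of the sum in intestine, 48.7% ± 4.8 in liver, 59.7% ± 6.5 in lung and 59.0% ± 6.4 in skin. Among these 8 genes, transcripts of both chain types were thus present in comparable amounts, while the members that supplied them differed from organ to organ. The sum leaves out other expressed keratins, such as *Krt10* (mean 2.45 in EC) and *Krt20* (2.70 in liver Epi), so the shares hold for the 8 genes only.

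**Figure D2:**
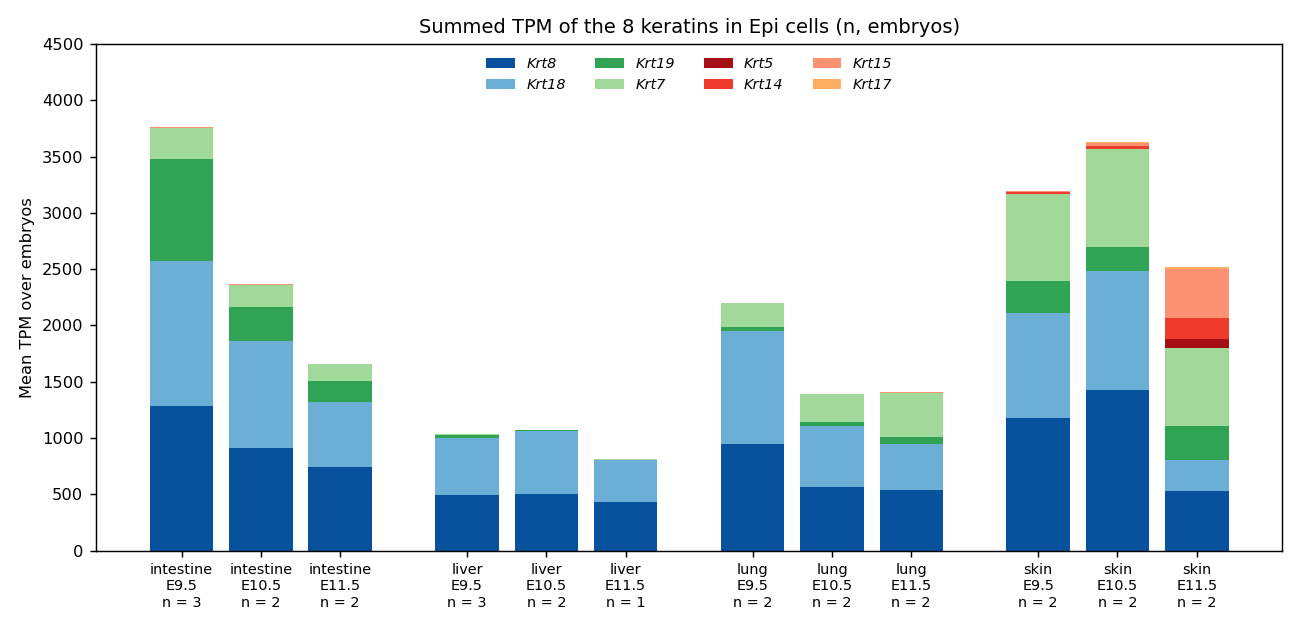
Stacked bars of the mean TPM over embryos of 8 keratins in Epi cells (vertical axis, TPM) by organ and day; n is the number of embryos. Liver bars hold almost only *Krt8* and *Krt18*, *Krt19* shrinks in intestine from 902 TPM at E9.5 to 188 at E11.5, and *Krt5*, *Krt14* and *Krt15* are visible chiefly in skin at E11.5.

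Each organ's Epi cells were next compared with the mean of the other 3 organs, and 8 of 32 differences were called. Of all genes, 2.1% were called for intestine, 6.64% for liver, 2.1% for lung and 4.28% for skin. *Krt7* was the keratin that differed most. In liver Epi it was 0 in its lowest embryo, 0.18 at the median and 0.70 in its highest, and 4.61 below the mean of the other organs (SE 0.20, adjusted p = 2.0e-23). In skin it ran from 5.65 through 5.89 to 6.5 and was 3.04 higher (SE 0.20, adjusted p = 2.0e-16). Lung and intestine lay between these, at 4.47 ± 0.86 and 4.16 ± 0.49, which did not differ beyond their spread. The lung difference from the other organs was 0.99 (SE 0.20, adjusted p = 0.00074), just under the size asked for, and it passed under 5 of the alternatives.

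*Krt19* set a different order. Over all days, intestine stood highest at 5.04 ± 1.26 (2.88 above the other organs, SE 0.30, adjusted p = 5.8e-10), then skin at 4.08 ± 0.62 (1.60 above, SE 0.32, adjusted p = 0.00018), lung at 1.68 ± 0.45 (a difference of -1.60, SE 0.32, adjusted p = 0.00043) and liver at 0.72 ± 0.61 (-2.88, SE 0.32, adjusted p = 5.8e-10). By day, intestine and skin were 6.28 and 4.46 at E9.5, 4.30 and 3.39 on the next day, and 3.91 and 4.37 at E11.5, where skin was the higher. By edgeR the lung difference was -1.71 (adjusted p = 0.090). *Krt8* and *Krt18* gave no called difference between organs: their 8 differences lay between -0.78 and 0.77. *Krt7* of intestine was 0.58 above the other organs (adjusted p = 0.045), under the size asked for, and *Krt5*, *Krt14* and *Krt15* of intestine, liver and lung were below them by differences of -0.25 to -0.79, none called. *Krt14* and *Krt15* were higher in skin, by 1.75 (SE 0.23, adjusted p = 7.0e-08) and 2.03 (SE 0.37, adjusted p = 4.9e-05). *Krt5* (0.76, adjusted p = 0.0017) and *Krt17* (0.47) were also above the other organs in skin but under the size asked for. *Krt5* was at 0 in every Epi cell of intestine, liver and lung; the 0 of 110 intestine cells allow a share of up to 2.73% of cells with a UMI, counting error only.

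Within single Epi cells the partners were found together. *Krt8* and *Krt18* were both expressed in 109 of 110 intestine cells, 48 of 48 liver cells, 51 of 52 lung cells and 76 of 79 skin cells. *Krt7* and *Krt19* were both expressed in 105 of 110 intestine cells and 72 of 79 skin cells, but in 31 of 52 lung cells and 4 of 48 liver cells. *Vim*, the vimentin gene of mesenchymal filaments, was expressed along with *Krt8* in 100 of 110 intestine cells, 28 of 48 liver cells, 34 of 52 lung cells and 76 of 79 skin cells. Its level nevertheless was lower in Epi than in Mes cells of liver, lung and skin, for example by 1.55 in skin (4.26 against 5.82, SE 0.49, adjusted p = 0.036), and the intestine difference was not called.

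Over time, *Krt5*, *Krt14* and *Krt15* rose in skin Epi cells, with their highest levels at E11.5. *Krt15* was 0.37 and 0.35 in the 2 E9.5 embryos with enough cells, then 0.54 and 1.48, and then 5.32 and 4.67 in the E11.5 embryos. *Krt14* was 0.52 and 1.19, then 1.08 and 0.96, then 3.55 and 3.31. *Krt5* was 0 and 0, then 0 and 0.19, then 2.63 and 1.74. For all 3 genes both E11.5 embryos lay above the 4 earlier ones. Fitted slopes per day were 2.32 (SE 0.23, adjusted p = 7.3e-07) for *Krt15*, 1.29 (SE 0.16, adjusted p = 1.3e-05) for *Krt14* and 1.09 (SE 0.14, adjusted p = 1.1e-05) for *Krt5*, in a limma fit in which a slope of at least 0.5 a day was called. By edgeR the slopes of *Krt15* and *Krt5* were called and that of *Krt14* was not (1.51, adjusted p = 0.42). *Krt17* was 0 and 0.09, then 0.82 and 0.25, then 0.44 and 1.28, with overlapping days and a slope of 0.41, below that size.

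**Figure D3:**
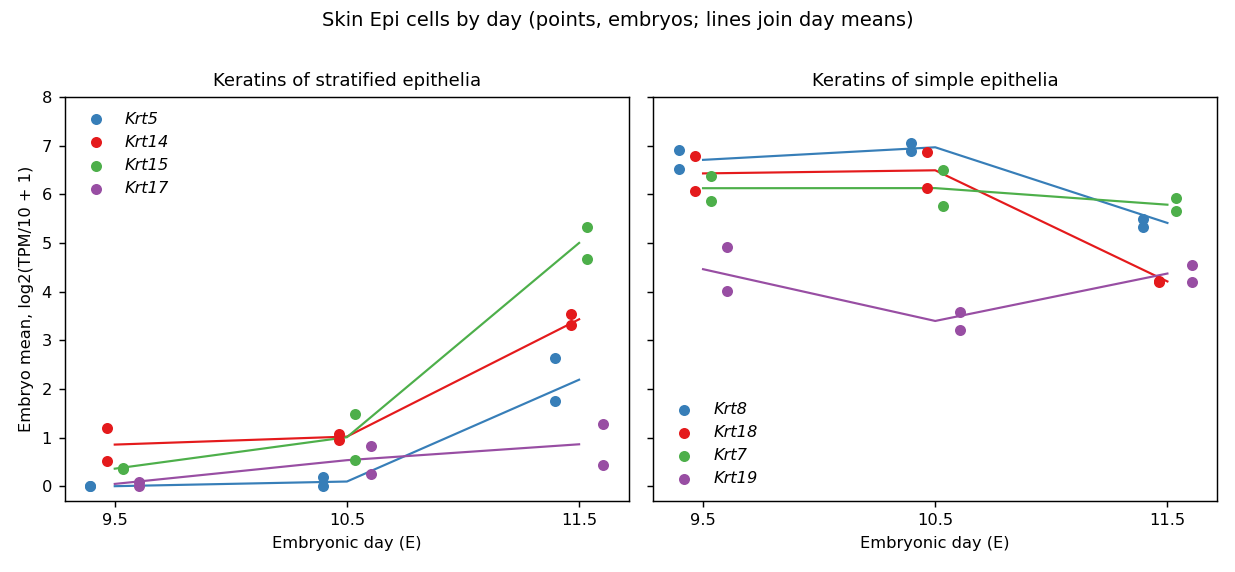
Embryo means on log2(TPM/10 + 1) (vertical axes) in skin Epi cells against embryonic day, with *Krt5*, *Krt14*, *Krt15* and *Krt17* on the left and *Krt8*, *Krt18*, *Krt7* and *Krt19* on the right; points are embryos and lines join day means. *Krt15* reaches 5.32 and 4.67 at E11.5, while *Krt18* stands at 4.19 and 4.23 there after 6.08 to 6.86 on the earlier days.

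Over the same days *Krt18*, the type I partner of the simple pair, fell. By day, *Krt18* was 6.78 and 6.08, then 6.86 and 6.12, then 4.19 and 4.23, and its slope was -1.11 per day (SE 0.26, adjusted p = 0.018). That call was lost by edgeR (-0.77, adjusted p = 0.18) and without either E11.5 embryo (-0.93 and -0.95, adjusted p = 0.24 for both). *Krt8* was 6.90 and 6.51, then 7.05 and 6.88, then 5.50 and 5.32, with a slope of -0.65 that was not called (adjusted p = 0.19). *Krt7* and *Krt19* had slopes of -0.17 and -0.04. Among 14414 genes, 1.71% were called for a skin slope, 1.19% for intestine, 1.23% for liver and 0.763% for lung. No keratin slope was called in liver, where the 8 slopes lay between -0.55 and 0, or in lung, where they lay between -0.48 and 0.58. At an unadjusted p under 0.05 these were 0 in liver and 1 in lung (*Krt7*), and edgeR called 2 in liver (*Krt7*, *Krt19*) and 0 in lung.

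Set against the mean slope of the other organs, the skin slopes of *Krt15* (2.28, SE 0.27, adjusted p = 2.0e-05), *Krt14* (1.29, SE 0.19, adjusted p = 0.00016) and *Krt5* (1.09, SE 0.16, adjusted p = 0.00015) were again called. The other skin differences lay between -0.70 (*Krt18*) and 0.47 (*Krt19*), and those of liver and lung, none called, between -0.81 and 0.59 and between -0.53 and 0.86. Of the latter, 3 and 4 had an unadjusted p under 0.05, and edgeR called 2 and 0. The share of all genes called for such a difference was 0.937% for skin, 1.33% for intestine, 0.812% for liver and 0.298% for lung. By edgeR on summed UMIs none of the 3 differences passed (adjusted p = 1.0), although its estimates were of the same sign. With 6 embryo means an exact two-sided permutation over days, added after the data were seen, gave p = 0.022 for *Krt15*, 0.067 for *Krt14* and *Krt5* and 0.11 for *Krt18*, and none of the 34 keratin slopes in Epi and Mes cells so tested passed adjustment (lowest adjusted p = 0.090).

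Cell by cell, *Krt15* was expressed in 3 of 17 skin Epi cells at E9.5, 8 of 22 at E10.5 and 40 of 40 at E11.5. *Krt14* was expressed in 6, 8 and 34 of these cells and *Krt5* in 0, 1 and 25. At E11.5 the stratified keratins were added to the simple ones in the same cells: all 34 cells with *Krt14* and all 25 with *Krt5* also expressed *Krt8* and *Krt15*, and 23 expressed both *Krt5* and *Krt14*. *Krt5*, *Krt14* and *Krt15* supplied 0.445% to 2.44% of the summed keratin TPM in the 4 earlier embryos and 30.5% and 24.2% at E11.5, while the *Krt8* and *Krt18* share was 29.3% and 35.6% there. All 79 skin Epi cells expressed 2 or more of the surface ectoderm markers *Trp63*, *Wnt6* and *Tfap2a*, and 19 of 79 expressed 2 or more periderm markers.

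In skin Mes cells *Krt15* had a called slope of 0.51 (SE 0.10, adjusted p = 0.0084), against 0.398% of 13584 genes called. E11.5 embryo 2, with 4 cells, had *Krt15* at 1.51, and without this embryo the slope was 0.25 (adjusted p = 0.021), under the size asked for. The other skin Mes slopes, none called, were -0.76 for *Krt8*, -0.53 for *Krt18*, -0.06 for *Krt7*, 0.03 for *Krt19* and 0.41 for *Krt14*. At E11.5 every keratin was present in the 14 skin Mes cells at 1.44% to 6.07% of its mean TPM in skin Epi cells, and in the 4 HC of skin at 0.947% to 8.8%. The 3 surface ectoderm markers summed to 83.5 TPM in the Mes cells of that embryo and to 15.1 in those of the other, while they summed to 28.5 to 78.7 TPM in the 4 earlier embryos. Carry-over of epithelial RNA as the source of these low values was not tested.

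The intestine showed a different course, with *Krt19* lower in Epi cells after E9.5. *Krt19* was 6.20, 6.65 and 6.00 in the 3 E9.5 embryos, then 3.60 and 5.0, and then 3.98 and 3.84 in the E11.5 embryos, so that all E9.5 embryos lay above all later ones. The slope was -1.24 per day (SE 0.25, adjusted p = 0.0049), and -1.12 relative to the other organs (SE 0.29, adjusted p = 0.047). The relative slope was -0.05 by edgeR (adjusted p = 1.0), and its call was lost under 9 of the alternatives. *Krt7*, *Krt8* and *Krt18* had slopes of -0.48, -0.37 and -0.61, none called. Among embryos labelled HiSeq 4000 alone, the *Krt19* slope was -0.95 (adjusted p = 0.19), by edgeR it was -1.09 (adjusted p = 0.059), and on log2(TPM + 1) it was -1.33 (adjusted p = 0.080). The exact two-sided permutation gave p = 0.024 (adjusted p = 0.090).

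Intestine Mes cells carried the simple pair at E9.5 and much less of it later. *Krt8* was 5.99, 5.47 and 4.06 in the E9.5 embryos, then 2.09 and 2.50, and then 2.10 and 1.2. *Krt18* was 4.87, 5.88 and 3.62, then 2.25 and 2.16, then 1.44 and 1.51. Every E9.5 embryo exceeded every later one for both genes, and the slope per day was -1.83 (SE 0.30, adjusted p = 0.0017) for *Krt8* and -1.71 (SE 0.25, adjusted p = 0.00056) for *Krt18*, with an exact permutation p of 0.024 and 0.014 (adjusted p = 0.090 for both). *Krt19* (-0.61, adjusted p = 0.14) and *Krt7* (0.04) were not called. Of the genes tested 0.64% were called for an intestine Mes slope, 1.17% for lung, where no keratin slope was called (0 also at an unadjusted p under 0.05 and by edgeR), and 0.412% for the intestine slope against lung and skin. In that last contrast, *Krt8* (-1.36, SE 0.37, adjusted p = 0.12) and *Krt18* (-1.29, SE 0.32, adjusted p = 0.076) were not called, nor was any other keratin (0 by edgeR, 4 at an unadjusted p under 0.05). Among HiSeq 4000 embryos the 2 intestine slopes were -1.13 (adjusted p = 0.12) and -1.03 (adjusted p = 0.050), not called. Depth also differed by embryo in these Mes cells. Their median UMIs ran from 249284 to 1593937 at E9.5. Later medians were 120792.5 and 166734 at E10.5, and 350668 and 488358 at E11.5.

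**Figure D4:**
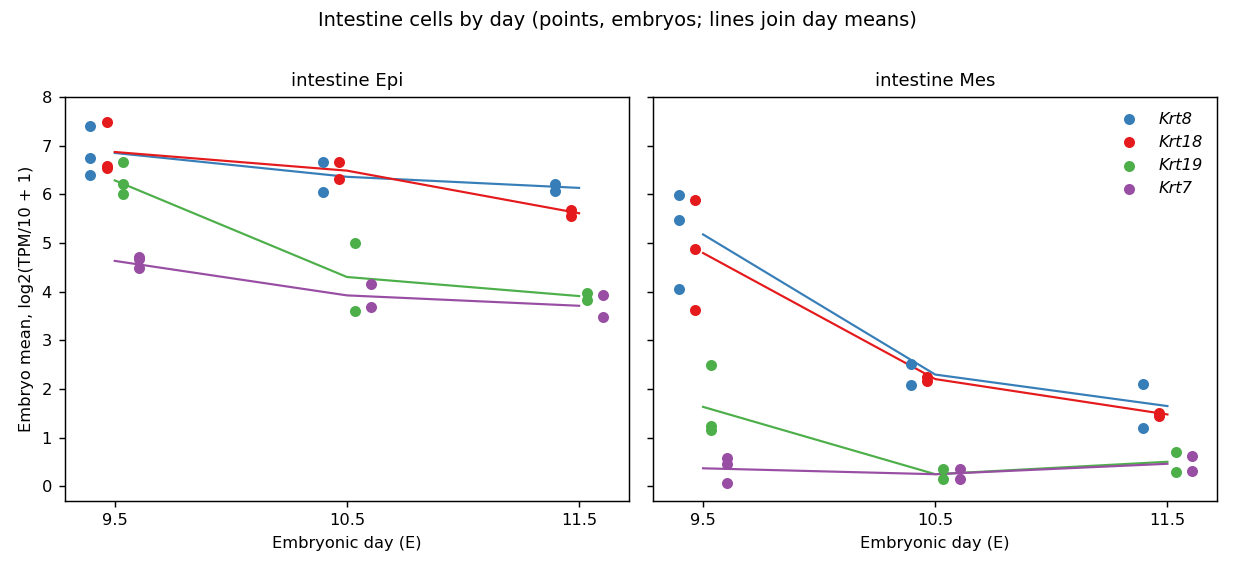
Embryo means on log2(TPM/10 + 1) (vertical axes) of *Krt8*, *Krt18*, *Krt19* and *Krt7* in intestine Epi (left) and Mes (right) cells against embryonic day; points are embryos and lines join day means. In Mes cells *Krt8* lies at 4.06 to 5.99 at E9.5 and at 1.2 to 2.50 later, while *Krt7* stays at or below 0.61.

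The keratins of E9.5 intestine Mes cells were not in the proportions of the Epi cells beside them. *Krt8* and *Krt18* stood at 35.3% and 29.3% of their mean TPM in Epi cells (535 against 1515 and 461 against 1573), *Krt19* at 3.91% and *Krt7* at 1.31%. By E11.5 the same 4 genes were at 5.49%, 4.63%, 2.74% and 3.67%. The summed epithelial markers of the Mes cells were 44.5 to 70.7 TPM at E9.5 and 60.9 to 118 later, against 2390 to 3068 in Epi cells. Hepatoblast markers summed to 0, 27.4 and 43.1 TPM at E9.5 and to between 7.36 and 17.8 later. Mesothelial markers summed to 47.5, 71.1 and 13.4 TPM at E9.5 and to between 0 and 1.21 later, in cells of which 2 of 74 expressed 2 or more of the 5 markers. Cardiomyocyte markers summed to 24.2, 53.1 and 11.7 TPM at E9.5 and to between 0 and 8.81 later. The part of any of these cell types, or of carry-over of epithelial RNA, in the fall of *Krt8* and *Krt18* was not tested. *Dsp*, which codes for desmoplakin, the desmosomal anchor of keratin filaments, also fell by 1.62 per day (SE 0.23, adjusted p = 0.00053), and *Pdgfra*, a receptor of mesenchymal cells, rose by 1.24 (SE 0.18, adjusted p = 0.00069).

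Among MC, *Krt19* was called higher in heart, and the simple pair lower in somite and higher in intestine. The pair was not particular to intestine: *Krt8* and *Krt18* averaged 3.23 and 2.98 there, 3.18 and 2.91 in liver MC and 2.22 and 2.44 in heart MC. These means are not matched for day, since the liver MC means came from E9.5 embryos only. In Mes cells of E9.5, *Krt8* and *Krt18* were 5.18 and 4.79 in intestine and 3.16 and 2.93 in liver. *Krt19* was 2.03 ± 0.73 (n = 6 embryos) in heart MC, 1.38 above the mean of the other 5 organs (SE 0.22, adjusted p = 1.4e-05). *Krt7* (0.74, adjusted p = 0.014) was under the size asked for in heart, and *Krt8* (0.13) and *Krt18* (0.64) were not called. *Krt8* was 0.38 ± 0.16 (n = 7) in somite MC, below the others (a difference of -2.09, SE 0.40, adjusted p = 0.00078), and *Krt18* was 0.41 ± 0.31 there (-1.80, SE 0.36, adjusted p = 0.0014). In intestine MC *Krt8* and *Krt18* were 1.33 and 1.29 higher (adjusted p = 0.034 and 0.024), and both calls were lost without any 1 of the 3 E9.5 embryos or without E10.5 embryo 1. The shares of 15814 genes called were 2.85% for heart, 1.09% for somite and 1.23% for intestine. For lung (0.885%), liver (0.993%) and skin (1.64%) no keratin was called, while 3, 3 and 4 had an unadjusted p under 0.05 and edgeR called 1, 3 and 2. Liver *Krt8*, from E9.5 embryos only, stood 1.27 above the other organs taken over all their days (SE 0.56, adjusted p = 0.38).

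The heart MC include cells of the epicardium, the mesothelial cover of the heart, and mesothelia are known as mesodermal epithelia that carry simple keratins. MC were therefore divided by the number of the mesothelial markers *Upk3b*, *Upk1b*, *Msln*, *Lrrn4* and *Wt1* that they expressed. There were 135 cells with 2 or more, of which 91 came from heart and 40 from liver, 141 with 1, and 599 with none. *Krt19* ranged from 1.75 through 2.84 to 4.06 over 7 embryos in the first set and from 0.15 through 0.41 to 0.75 in the last, without overlap, a difference of 2.58 (SE 0.28, adjusted p = 5.8e-05). *Krt18* ran from 2.33 through 4.02 to 5.47 against 0.53 through 1.36 to 1.87, also without overlap, and differed by 2.62 (SE 0.44, adjusted p = 0.0021).

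*Krt8* was 3.495 ± 1.46 against 1.43 ± 0.56 (difference 2.06, SE 0.52, adjusted p = 0.024) and *Krt7* 2.15 ± 1.09 against 0.46 ± 0.32 (1.69, SE 0.38, adjusted p = 0.013), with ranges that overlapped for both although each embryo was higher in the first set (7 of 7 for both genes). The 4 keratins of simple epithelia were thus all higher in cells with mesothelial markers, where 1.56% of 15550 genes were called, and none of *Krt5*, *Krt14*, *Krt15* and *Krt17* was by limma, while edgeR also called *Krt14*, which differed by 0.35 in limma (adjusted p = 0.23). In heart cells alone the differences were 2.38 for *Krt7*, 2.35 for *Krt8*, 2.46 for *Krt18* and 2.12 for *Krt19*, all called (adjusted p between 0.00048 and 0.028). The *Krt8* call of the all-organ comparison was lost without E9.5 embryo 1, E10.5 embryo 2 or E11.5 embryo 2 (adjusted p = 0.053, 0.085 and 0.089). Over all organs, none of the 4 epithelial markers was called higher in cells with 2 or more mesothelial markers, and the cardiomyocyte markers *Myl7* and *Tnnt2* were. The cells with no marker came from somite (183), lung (137), skin (87), heart (70) and other organs, so the sets differ in organ.

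**Figure D5:**
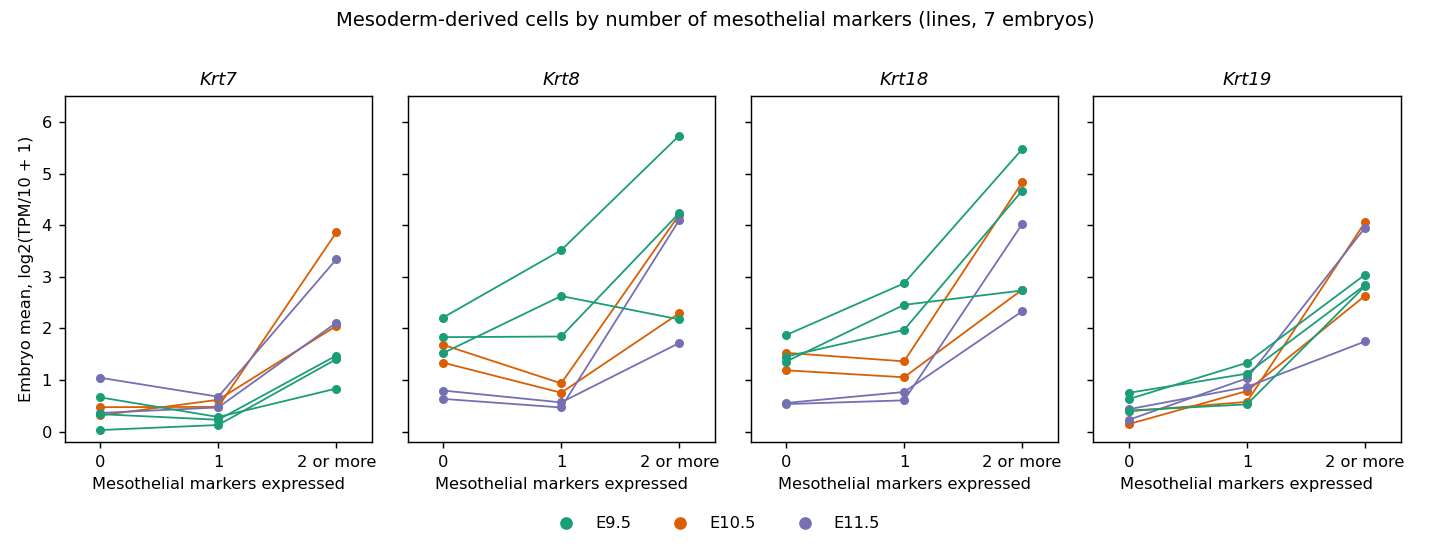
Embryo means on log2(TPM/10 + 1) (vertical axis) of 4 keratins in MC with 0, 1, or 2 or more mesothelial markers expressed (horizontal axis); each line is 1 of 7 embryos, coloured by day. All 4 keratins are higher with 2 or more markers than with none in all 7 embryos, and cells with 1 marker lie near those with none for *Krt7*.

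Liver Mes cells were the Mes set richest in mesothelial markers, with 36 of 76 cells expressing 2 or more. Their *Krt19* at E9.5, a mean of 46.6 TPM, was 171% of that in the 35 Epi cells of that day, whereas their epithelial markers summed to 3.81, 14.0 and 6.69 TPM. Hepatoblast markers were also found there, at 25.3, 218 and 272 TPM, as were cardiomyocyte markers, at 4895, 2258 and 708.5 TPM. The part of heart or hepatoblast RNA in the liver Mes values was not tested.

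The genes that build on keratins were described from lists. In skin Epi cells against Mes cells, where 3.7% of all genes were called, 5 of 10 desmosome genes were higher: *Perp* (4.73, SE 0.23), *Dsp* (1.96), *Pkp3* (1.78), *Jup* (1.67) and *Pkp2* (1.53). Their list median was 1.21, where the median of all genes was 0.00. Of 9 hemidesmosome and linker genes, which tie keratins to the basement membrane or envelope, *Ppl* (2.32), *Cd151* (2.0), *Itga6* (1.99) and *Plec* (1.30) were higher, with a median of 0.91. *Trp63*, the master factor of stratified epithelia, was higher by 2.47 (SE 0.13, adjusted p = 2.1e-20), as were *Tfap2a*, *Grhl2* and *Tfap2c* of the 14 transcription factors.

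In the other organs, among the 10 desmosome genes tested, *Dsc2* was higher in intestine Epi, *Dsg2* and *Pkp4* in lung Epi and none in liver Epi, and the list medians were 0.56, 0.55 and -0.01. Of the hemidesmosome and linker genes *Itga6* was higher in intestine Epi (1.53, SE 0.27, adjusted p = 3.7e-05) and none was called in lung or liver. Of the factors, those named here were higher in intestine Epi (*Cdx2*), liver Epi (*Hnf4a*) and lung Epi (*Grhl2*). Over time in skin Epi, *Col17a1*, a hemidesmosomal collagen, rose by 0.73 per day (SE 0.07, adjusted p = 4.9e-07) beside the stratified keratins, and *Tfap2c* fell by 0.65 per day.

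The tables held 44 further keratin rows. Of these, 16 had no UMI in the kept cells, 20 were expressed in fewer than 10 cells, and 8 in 10 or more. *Krt10*, a keratin known from differentiated epidermal layers, was expressed in 1124 cells of all major groups, with means of 2.45 in EC, 1.97 in MC, 0.92 in HC and 2.31 in NC, so that it did not follow the epithelial label. *Krt20*, known from intestinal epithelium, was expressed in 162 cells, 128 of them EC. It was called higher in liver Epi than in the other organs' Epi cells (2.70 against 0.80, a difference of 1.90, SE 0.16, adjusted p = 7.4e-14) and lower in lung Epi.

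Across 89 means of organ, major group and embryo, which share libraries and embryos and are given as description only, *Krt8* and *Krt18* had a Pearson correlation of 0.98 and *Krt5* and *Krt15* one of 0.95, *Krt14* and *Krt15* one of 0.94, and *Krt5* and *Krt8* one of 0.15. Among 17432 other genes, those most like *Krt8* and *Krt18* were *Sdc4* (0.89 and 0.91) and *F11r* (0.88 and 0.90). *Krt7* was most like *Ap1m2* (0.91) and *Cdh1* (0.91), and *Krt19* most like *F11r* (0.86). *Krt5* was most like *Gjb6* (0.99), *Krt15* most like *Gjb2* (0.97), *Krt14* most like *Col17a1* (0.92) and *Krt17* most like *Gm10471* (0.93).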

How the data were processed

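The authors reverse-transcribed single cells with cell barcodes and UMIs, sequenced transcript 3′ ends and, per the labels, used CASAVA 1.8, TopHat2 2.0.12, HTSeq and mm10. The deposited values, named TPM by the authors, are CPM (a gene's UMIs over all UMIs of the cell, scaled to a common total), rounded to 0.01, and 100% of them gave whole UMIs within a tolerance of 0.05. Counts per gene thus carry no length term. The labels' protocol and the study's methods differ on how cells were isolated. Cells, major groups and Epi or Mes labels were taken from the study's cell table, with embryos read from cell names. Of 1851 cells with at least 2000 genes, 1819 were in that table.

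The replicate was the embryo (at least 3 cells of it in a set). P-values measure the spread between embryos, pooled over all groups of a fit. *Krt5*, *Krt14* and *Krt15* were low outside skin, so for them this pooled spread is smaller than that of the skin embryos. Their skin SEs and p-values are therefore too small for skin taken alone. Genes at 1 or more on log2(TPM/10 + 1) in at least 3 cells were fitted with limma 3.58.1 (trended eBayes, 1 shared spread over all groups of a fit) in R 4.3.3, with Benjamini-Hochberg adjustment per contrast over all genes. Calls needed an adjusted p under 0.05 and a difference of at least 1, or a slope of at least 0.5 per day. By the rule for named genes every keratin counted in every comparison and differences were considered where either mean reached 0.25. Those not called are given partly as ranges, and up to 4 called genes of each list were named by size (the 5 desmosome genes of skin are all given). Like genes were the 3 with the highest correlation. The members and lists were chosen with earlier results of these data known. edgeR 4.0.16 (quasi-likelihood, TMM) on summed UMIs was an alternative, and scripts were tested on simulated data. The comparison of day slopes in Mes cells, the heart-only comparison and the exact permutation tests were added after the data were seen. At E9.5 same-numbered samples are organs of the same embryo, so numbers pair them. At E10.5 and E11.5 a sample held both embryos of the day, and only cell names pair the organs of an embryo. Day and sample cannot be told apart there. The correlation within embryos was 0.05 for Epi against Mes, 0.03 and 0.05 for the slopes, 0.08 for organs of MC and 0.19 for mesothelial markers. No doublet caller was run, since the study's methods say that cells were picked singly, and no 2 cells held identical values.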

Additional observations from a re-analysis of the deposited data

Results flagged for a closer look

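In all, 4 keratin slopes in Epi cells differed between organs by limma's test of the difference itself, and none of these 4 was called by edgeR (adjusted p = 1.0 for each). Relative to the other organs, the slope per day in skin was 2.28 for *Krt15*, 1.29 for *Krt14* and 1.09 for *Krt5*, and that in intestine was -1.12 for *Krt19*.

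Among 38 sets of embryo means tested for 1 value far from the rest, 6 had one, and chance flags about 1 in 20 such sets. In skin Mes cells E11.5 embryo 2, with 4 cells, was highest for *Krt14* at 1.44 (next 0.25), *Krt15* at 1.51 (next 0.55) and *Krt17* at 0.30 (next 0.06). In lung Epi cells *Krt15* was 0.66 in E11.5 embryo 2 (next 0.19) and *Krt8* was 7.06 in E9.5 embryo 2 (next 5.80), each from 3 cells. In lung Mes cells *Krt19* was 0.42 in E11.5 embryo 1 (next 0.12).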

How the results depend on the processing

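Of 897 recomputed differences and slopes, 830 kept their direction and side of the threshold, 48 were no longer called, 19 became called and none changed sign. These cover the called keratin results and some uncalled ones picked by hand. Most uncalled keratin differences are not among them, so these counts do not measure the stability of all comparisons. Of 64 recomputed shares of cells, 32 moved beyond the counting error of the reported share and 32 did not. With the embryo as a replicate block the counts of called keratins were 16 for Epi against Mes, 8 between organs of Epi, 5 for slopes and 5 for slopes against other organs (4 without it), 3 for Mes slopes, 5 between organs of MC and 4 for mesothelial markers. The block thus moved 1 count, by less than 1.5 times. On log2(TPM + 1) 14 keratins were called between organs of Epi in place of 8, and 8 between organs of MC in place of 5. The MC count was 16 by edgeR, 3 among HiSeq 4000 embryos and 3 to 5 with 1 embryo left out. No Mes slope was called among HiSeq 4000 embryos (0, against 3), and 1 was called for intestine against the other organs with a filter of 10 cells (against 0 in limma as reported). The cause was not tested. The *Krt19* slope of intestine against other organs, with an adjusted p close to the threshold, was not called under 9 alternatives, and by edgeR it was -0.05. By edgeR the 3 slope differences called were *Krt7* and *Krt19* of liver and *Krt19* of skin. For Epi against Mes in liver edgeR called *Krt14* alone. Leaving out 1 embryo gave 14 to 16, 8 to 9, 4 to 6, 3 to 5, 2 to 4 and 3 to 4 called keratins for Epi against Mes, organs of Epi, slopes, slopes against other organs, Mes slopes and mesothelial markers. With 3 to 31 cells per embryo in an Epi set, and 6 or 7 embryos, small changes in *Krt5* and *Krt17* were at the limit of detection.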

Other observations

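In MC with mesothelial markers, where 1.56% of all genes were called against MC without one, some genes of junctions and of other filaments were higher. Marked and unmarked cells came from different mixes of organs. Of 9 desmosome genes tested, *Dsg2* (1.22, SE 0.17, adjusted p = 0.00036) and *Jup* (1.01, SE 0.22, adjusted p = 0.0098) were higher by limma, and of 11 other intermediate filament genes *Lmna*, a nuclear lamin, (1.59, SE 0.27, adjusted p = 0.0022) and *Vim*, the mesenchymal vimentin (1.30, SE 0.34, adjusted p = 0.031), were.

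Keratins were also present in MC with cardiomyocyte markers. Among 400 MC expressing 2 or more of *Myl7*, *Tnnt2*, *Ttn* and *Actn2*, 58.2% expressed *Krt8*, 57.8% *Krt18*, 42.0% *Krt19* and 29.0% *Krt7*, with *Krt5*, *Krt14*, *Krt15* and *Krt17* each in 4.0% or fewer. Every heart MC passed this cut, epicardial cells included, as did 29 of 29 liver Mes cells of E9.5 embryo 1 and 3 of 22 of E9.5 embryo 3. The class therefore does not single out cardiomyocytes. In HC of all organs the shares were 13.7% for *Krt8*, 22.5% for *Krt18*, 2.01% for *Krt19* and 3.61% for *Krt7*. The 16 HC of heart had higher mean levels than liver HC: 1.10 for *Krt8*, 1.63 for *Krt18*, 0.76 for *Krt19* and 0.88 for *Krt7* (n = 3 embryos). The part of cells that carry both mesothelial and cardiomyocyte markers in these values was not tested.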
